A study of Mus musculus with 25 samples.

Results

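The NR4A family is represented in the ATAC-seq count table by 11 of 13527 peaks, 5 at Nr4a1, 2 at Nr4a2 and 4 at Nr4a3. A peak was taken as a member when its midpoint had 1 of the 3 genes as its nearest protein-coding transcription start (GENCODE vM39, GRCm39) or lay in the body of that gene, a rule that uses position alone. The cells were CD8+ T cells from spleen and lymph nodes of female C57BL/6 mice, sorted with OVA:Kb tetramers, so that they carried endogenous receptors for an antigen made by the 2W-OVA.BALB/c strain and are called fetus/graft-specific cells (T_FGS). Naive mice had no treatment (3 libraries), Sensitized mice had received an allogeneic 2W-OVA.BALB/c skin graft (4 libraries), N+P mice had been through a semi-allogeneic pregnancy by a 2W-OVA.BALB/c male without earlier sensitization, and S+P mice had both the graft and the later pregnancy. Post-partum cells were sorted by PD1 and CD73 into N+P C1 (PD1-, 3 libraries), N+P C5 (PD1+CD73+, 3), S+P C4 (PD1-, 4), S+P C5 (PD1+CD73+, 4) and S+P C7 (PD1+CD73-, 4), whereas Naive and Sensitized cells were not split on these markers. Per the study, grafted females were mated at the same minimum interval after the graft at which Sensitized mice were analyzed by flow cytometry. Its N+P and S+P mice were analyzed there within days of delivery. Pregnancy and time since the graft therefore cannot be told apart where S+P and Sensitized cells are compared. The study gives the age of the mice at purchase, and their age at harvest is not given in the sources used here. Per its methods, cell suspensions were made from each mouse separately. Whether sorted cells of several mice were then combined in a library is not given either, so p-values measure the spread between libraries.

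NR4A proteins are orphan nuclear receptors. Nr4a1 (Nur77), Nr4a2 (Nurr1) and Nr4a3 (NOR1) are immediate-early genes: they are transcribed within a short time of T cell receptor signaling, through calcineurin, NFAT and MEF2 proteins, and their products bind DNA as monomers at a short element named NBRE. In CD8+ T cells the family is known for its part in exhaustion and tolerance, where NFAT acts with little AP-1, and Nr4a1 is widely used as a reporter of antigen contact. ATAC-seq counts transposase cuts in open chromatin and measures the openness of these loci, not the amount of their RNA or protein. In these bulk libraries, more cells with an open site and a site that is more open in each cell cannot be told apart.

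At Nr4a1 (ENSMUSG00000023034.9, chr15:101151980-101172681, plus strand) 2 peaks lay 13.1 kb and 7.41 kb before the gene start, and the others at the gene start itself, in an intron and at an internal promoter. The Nr4a1 distal peak covered chr15:101138636-101139138 and the upstream peak chr15:101143843-101145301, both intergenic. The gene-start peak, at chr15:101151465-101152340, held the starts of 9 of the 25 coding transcripts, and the internal-promoter peak, at chr15:101164053-101167074, held 13. The intron peak, at chr15:101155793-101157088, held none. At Nr4a2 (ENSMUSG00000026826.15, chr2:56996842-57014331, minus strand) the gene-start peak at chr2:57013432-57014503 held 5 of 22 coding transcript starts, and a broad peak of 6967 bp at chr2:57001027-57007993, inside the gene, held the other 17. At Nr4a3 (ENSMUSG00000028341.10, chr4:48045153-48086447, plus strand) a broad promoter peak of 6848 bp at chr4:48042490-48049337 held both coding transcript starts. A distal peak at chr4:48012063-48012700 and an upstream peak at chr4:48039481-48040316 lay 32.8 kb and 5.25 kb before the start, and an intron peak at chr4:48074238-48075660 lay 29.8 kb into the gene. The broad Nr4a2 and Nr4a3 peaks ranked 11 and 12 in length among all 13527.

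The centres of 4 peaks are printed because they carry the changes described below: the Nr4a1 distal and gene-start peaks were called more open, the Nr4a3 upstream peak moved the other way, and the Nr4a3 distal peak separated the PD1+ subsets. Each is 300 bases of the GRCm39 plus strand around the midpoint. Capitals mark matches, on either strand, to NBRE (AAAGGTCA), CRE (TGACGTCA), AP-1 (TGANTCA), NFAT (TGGAAA), RUNX (TGTGGT), T-box (GGTGTGA) and MEF2 (searched by its 10-letter consensus), and a match on the minus strand shows as its reverse complement.
Nr4a1 distal peak, chr15:101138738-101139037: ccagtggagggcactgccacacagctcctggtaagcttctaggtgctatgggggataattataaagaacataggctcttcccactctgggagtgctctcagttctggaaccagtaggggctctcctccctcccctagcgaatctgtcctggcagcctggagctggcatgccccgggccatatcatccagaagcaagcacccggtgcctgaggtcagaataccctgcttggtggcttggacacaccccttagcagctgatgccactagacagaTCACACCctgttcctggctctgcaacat
Nr4a1 gene-start peak, chr15:101151753-101152052: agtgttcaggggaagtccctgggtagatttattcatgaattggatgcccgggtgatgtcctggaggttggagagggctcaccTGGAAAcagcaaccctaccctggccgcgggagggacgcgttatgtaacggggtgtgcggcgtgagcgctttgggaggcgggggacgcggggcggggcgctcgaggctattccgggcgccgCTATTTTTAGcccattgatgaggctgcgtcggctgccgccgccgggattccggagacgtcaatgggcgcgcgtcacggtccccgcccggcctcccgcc
Nr4a3 upstream peak, chr4:48039749-48040048: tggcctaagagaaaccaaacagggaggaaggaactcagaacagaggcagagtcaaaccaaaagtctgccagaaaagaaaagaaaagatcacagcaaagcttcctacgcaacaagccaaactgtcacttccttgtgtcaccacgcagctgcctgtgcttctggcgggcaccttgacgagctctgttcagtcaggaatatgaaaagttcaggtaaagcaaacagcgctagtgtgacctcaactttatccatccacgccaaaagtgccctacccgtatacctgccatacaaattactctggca
Nr4a3 distal peak, chr4:48012232-48012531: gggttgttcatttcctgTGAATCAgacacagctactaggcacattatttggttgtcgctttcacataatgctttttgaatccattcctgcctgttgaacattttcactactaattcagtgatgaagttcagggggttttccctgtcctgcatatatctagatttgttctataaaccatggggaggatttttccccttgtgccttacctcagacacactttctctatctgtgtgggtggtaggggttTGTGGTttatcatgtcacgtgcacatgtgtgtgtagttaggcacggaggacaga

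The distal Nr4a1 window held 1 T-box match and nothing else, against 5.13% of all 13527 windows of this length with such a match. The gene-start window held 1 NFAT match (18.1% of windows) and 1 MEF2 match (1.63%). The Nr4a3 upstream window held no match, and the Nr4a3 distal window held 1 AP-1 match (9.16%) and 1 RUNX match (24.4%). No NBRE was found in any of the 11 windows, while 0.961% of all windows had one and CRE was found in 2.09%. Over whole intervals, 1 NBRE lay in the Nr4a1 internal-promoter peak and 1 in the Nr4a3 intron peak. These are matches of letters only.

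All 3 genes had a RefSeq promoter of 300 bases, and the Nr4a2 promoter is shown because it was the 1 of them with a match to MEF2, the consensus also found in the Nr4a1 gene-start window. The Nr4a1 RefSeq promoter, which lies in the internal-promoter peak and not in the gene-start peak, held no match to any motif, and that of Nr4a3 held 1 T-box match. MEF2 matched 3.19% of 32851 RefSeq promoters. The Nr4a2 promoter is printed on the minus strand, 5′ to 3′ of the gene, and matched GRCm39 at chr2:57013966-57014265, inside the gene-start peak.
Nr4a2 promoter, RefSeq (table build GRCm38.p6): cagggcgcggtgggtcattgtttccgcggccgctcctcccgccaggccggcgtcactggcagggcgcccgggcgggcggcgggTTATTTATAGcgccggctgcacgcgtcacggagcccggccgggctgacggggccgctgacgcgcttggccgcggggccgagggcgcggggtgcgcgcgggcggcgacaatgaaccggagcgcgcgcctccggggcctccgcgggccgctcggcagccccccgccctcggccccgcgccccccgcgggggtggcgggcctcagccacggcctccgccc

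**Figure D1:**
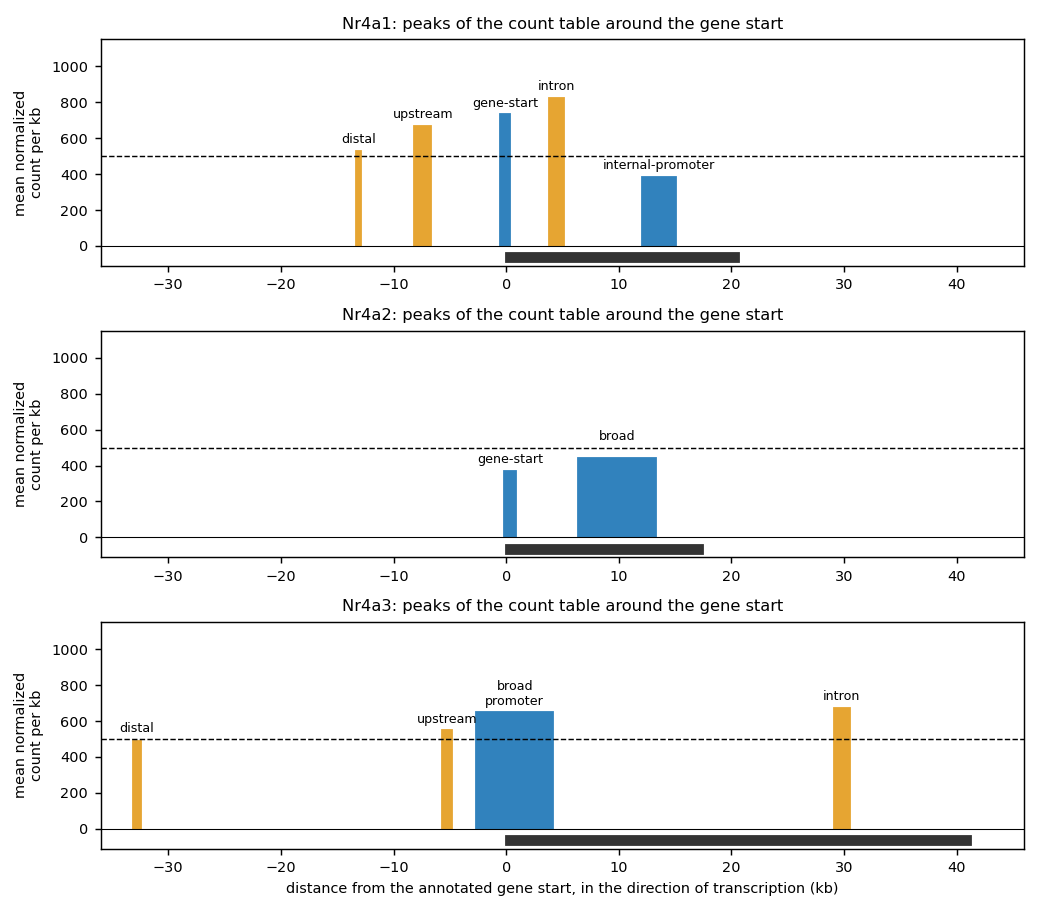
Peaks of the count table at each NR4A gene, drawn to scale against the distance in kb from the annotated gene start in the direction of transcription. The height is the mean normalized count per kb over 25 libraries, blue peaks hold a coding transcript start, orange peaks hold none, the black bar is the gene and the dashed line is the median of all peaks, 499.6 per kb.

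Per kb, the Nr4a1 intron and gene-start peaks were among the more open of the table, with mean normalized counts of 826 and 734 per kb that exceeded 94.9% and 89.2% of peaks. The Nr4a3 broad promoter peak stood at 649 per kb, above 80.3% of peaks. The Nr4a2 gene-start peak (371 per kb, above 16.2% of peaks) and the Nr4a1 internal-promoter peak (386 per kb, above 19.5%) were the least open members.

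The 25 libraries held between 2430890 and 25419715 counts over all peaks, with S+P C4 replicate 1 the shallowest and S+P C5 replicate 1 the deepest. Within the NR4A peaks the raw count ran from 61, at the Nr4a1 distal peak in S+P C4 replicate 1, to 12369, at the Nr4a3 broad promoter peak in S+P C5 replicate 1. Over all peaks, 10 of the 25 libraries correlated better with the mean of another group than with that of their own. Sensitized replicates 3 and 4 and S+P C4 replicate 1 were among them and correlated best with N+P C5, so the results at NR4A peaks that rest on them are given with and without them. Sensitized replicate 1 had the lowest correlation with its own group (0.868) and was nearest to S+P C4 (0.931), and the counts that move without it are given too. A promoter peak was present for 5 of 8 CD8 T cell markers, with Cd8a between 193 and 461 normalized counts in every library, and for 0 of 20 markers of CD4 T, B, myeloid, NK and erythroid cells. Cd8b1, Cd2 and Thy1 had none in the table. The summed level of the 5 CD8 T cell promoters was 1429 to 1550 in the N+P libraries and 1643 to 1940 in the S+P libraries. It was 1438 to 1848 in Naive and 1303 to 1969 in Sensitized libraries, and its part in the differences below was not tested.

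The comparisons below used DESeq2 with Benjamini-Hochberg adjusted p-values over all peaks. A peak is said to have risen or fallen where adjusted p was under 0.1, and to be called where the log2 fold change also exceeded 0.9 in size, the threshold of the study. Of 154 pairs of a member peak and a comparison, 43 passed the adjusted p. The share of all peaks that passed ran from 0% to 71.4% between comparisons, so member counts are to be read beside the share given with each. Many counts from fits without a replicate have no such share printed, and a shift in them is not read as particular to NR4A.

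The largest differences at the NR4A loci were between post-partum cells of sensitized and of naive mice, and they were led by Nr4a1. S+P C7 against N+P C5 compared PD1+ cells, CD73- in the first and CD73+ in the second. Of the 11 peaks, 7 rose and 1 fell in S+P C7, where 71.4% of all peaks passed and 35.8% passed upward, so the share that passed was near the background. The fold threshold called 2 members, against 22% of all peaks, both at Nr4a1. The median log2 fold change was 0.54 over the members and 0.01 over all peaks.

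The Nr4a1 gene-start peak had normalized counts of 510, 512 and 408 in the Naive libraries, 502, 345 and 439 in N+P C1 and 507, 429 and 286 in N+P C5. It had 964, 792, 501 and 455 in Sensitized libraries 1 to 4. After pregnancy in sensitized mice, the PD1- C4 libraries had 558, 693, 1031 and 666, the C5 libraries 601, 849, 885 and 690, and the C7 libraries 632, 931, 1034 and 856. Every S+P library stood above every Naive and N+P library, and Sensitized replicates 3 and 4 lay in the naive range. The mean was 407 ± 112 (SD, n = 3) in N+P C5 and 863 ± 171 (n = 4) in S+P C7. The log2 fold change was 1.08 ± 0.25 (SE), with adjusted p 6.93e-05. Without N+P C5 replicate 3, the lowest library, it was 0.88 and under the fold threshold.

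The Nr4a1 distal peak had 161, 242 and 206 normalized counts in Naive, 194, 179 and 192 in N+P C1 and 174, 210 and 156 in N+P C5. Sensitized libraries had 336, 199, 212 and 191. The S+P libraries had 208, 388, 439 and 354 in C4, 280, 320, 290 and 254 in C5, and 294, 417, 376 and 411 in C7. The C5 and C7 libraries were above all Naive and N+P libraries, and S+P C4 replicate 1 was the only S+P library within their range. Against N+P C5 the log2 fold change in S+P C7 was 1.06 ± 0.22 (adjusted p 8.77e-06), 0.93 to 1.18 over its alternatives. Of the 7 deposited group peak lists, 2 held this interval, the lists for the PD1+ S+P subsets, with q-values of 0.871 and 0.822. The S+P C4 list did not hold it, although its mean normalized count there was 347, against 286 for S+P C5.

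The other Nr4a1 peaks also rose in S+P C7 against N+P C5. The upstream peak rose by a log2 fold change of 0.88 ± 0.19 (adjusted p 1.93e-05), from 682 ± 74.1 to 1256 ± 252. The internal-promoter peak, where 13 of 25 Nr4a1 coding transcripts start, rose by 0.65 ± 0.12 (adjusted p 9.31e-07). The intron peak rose by 0.51 ± 0.18 (adjusted p 0.00821). Over the 25 libraries the upstream and gene-start peaks had a Pearson r of 0.956 in log2 normalized counts and the intron and internal-promoter peaks 0.559, a description over libraries that share group and depth.

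**Figure D2:**
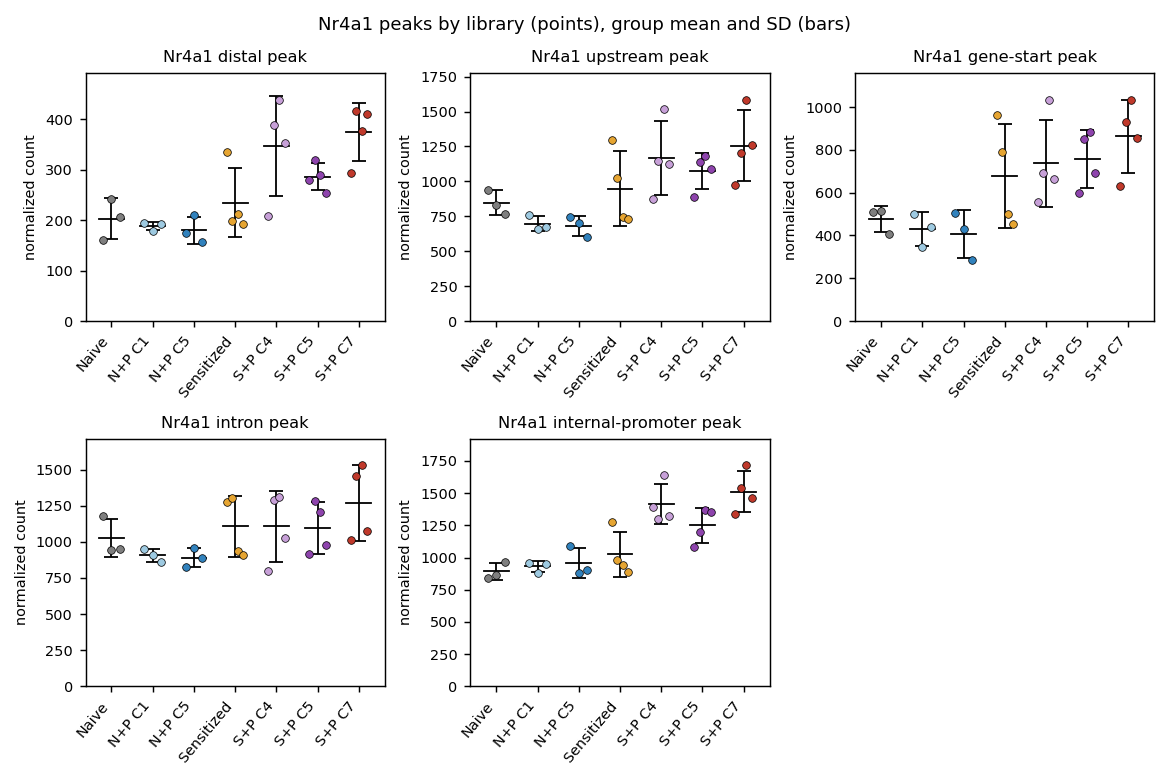
Normalized counts of the 5 Nr4a1 peaks in each library, by group, with the group mean and SD as bars. S+P libraries stand above Naive and N+P libraries at the gene-start peak, and Sensitized libraries span both ranges, from 455 to 964.

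Nr4a2 rose as well in this comparison, with log2 fold changes of 0.73 ± 0.19 at the gene-start peak (adjusted p 0.000410) and 0.54 ± 0.12 at the broad peak (adjusted p 1.65e-05). The Nr4a3 upstream peak fell by 0.81 on the log2 scale (SE 0.16, adjusted p 4.22e-06), from 542 ± 74.1 to 310 ± 22.1. The Nr4a3 broad promoter peak had a log2 fold change of -0.09 and did not pass. Leaving out N+P C5 replicate 1 raised the called count from 2 to 4, adding the Nr4a1 and Nr4a3 upstream peaks, and leaving out N+P C5 replicate 3 lowered it to 1.

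S+P C5 against N+P C5 held the sort gate constant (PD1+CD73+ in both). Again 7 members rose and 1 fell, beside 63.8% of all peaks passing and 31.6% passing upward. None was called, beside 17.2% of all peaks. The Nr4a1 gene-start peak came nearest, with log2 fold change 0.89 ± 0.25 (adjusted p 0.00151), and it crossed the threshold without replicate 1 or 2 of N+P C5 (1.08 and 0.93) or replicate 1 or 4 of S+P C5 (0.99 and 0.93). It was lower without N+P C5 replicate 3 (0.69) and without replicate 2 or 3 of S+P C5 (0.83 and 0.81). The distal peak (0.67 ± 0.22), the upstream peak (0.66 ± 0.19) and the internal-promoter peak (0.38 ± 0.12) rose. At Nr4a2 the broad peak rose by 0.49 ± 0.12 (adjusted p 0.000170) and the gene-start peak by 0.53 ± 0.19 (adjusted p 0.0128).

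Nr4a3 split in this comparison. Its distal peak rose by 0.63 ± 0.16 (adjusted p 0.000447), whereas its upstream peak fell by 0.39 on the log2 scale (SE 0.16, adjusted p 0.0326) and its broad promoter and intron peaks had -0.07 and 0.05. For the broad promoter peak the 95% interval of the difference ran from -0.21 to 0.08.

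S+P C4 against N+P C1 compared the PD1- cells. Here 7 members rose and none fell, beside 53% of all peaks passing and 25.9% passing upward. The distal Nr4a1 peak was the 1 member called, beside 12.6% of all peaks, with log2 fold change 0.90 ± 0.23 (adjusted p 0.000515) that lay at the threshold. It was called no longer without N+P C1 replicate 2 (0.86), S+P C4 replicate 2 (0.85), S+P C4 replicate 3 (0.78) or S+P C4 replicate 4 (0.90), and it rose to 1.06 without S+P C4 replicate 1. Without N+P C1 replicate 1 the gene-start peak was called too (0.92). The Nr4a1 gene-start, upstream and internal-promoter peaks rose by 0.78 ± 0.25, 0.75 ± 0.19 and 0.60 ± 0.13. The Nr4a2 gene-start peak rose by 0.65 ± 0.20 (adjusted p 0.00428), the broad peak by 0.26 ± 0.12 (adjusted p 0.0648) and the Nr4a3 distal peak by 0.53 ± 0.17 (adjusted p 0.00810). Without the shallow S+P C4 replicate 1, 9 members rose and 1 fell, beside 58.5% of all peaks passing, the last being the Nr4a3 upstream peak with -0.49 ± 0.15. The 3 comparisons against N+P cells share libraries, since N+P C5 entered 2 of them.

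**Figure D3:**
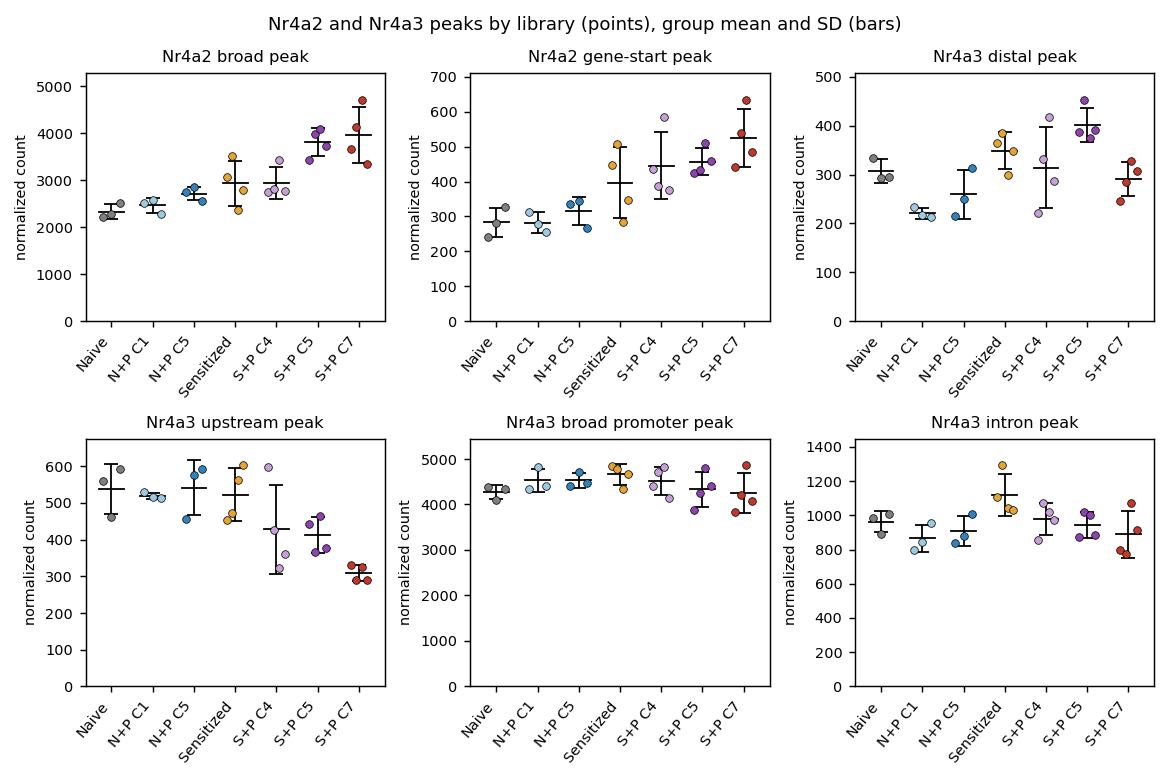
Normalized counts of the 2 Nr4a2 and 4 Nr4a3 peaks in each library, by group, with the group mean and SD as bars. The Nr4a2 broad peak is highest in the PD1+ S+P subsets, the Nr4a3 upstream peak is lowest in S+P C7 (290 to 331), and the Nr4a3 broad promoter peak lies between 3844 and 4866 in every library.

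First pregnancy in naive mice left no detected change at these loci. N+P C1 against Naive and N+P C5 against Naive each had 0 members passing, beside 11.9% and 7.87% of the peaks that kept an adjusted p, and 0 called, beside 0.0205% and 0.0262%. The independent filter gave an adjusted p to 7 and 6 of the 11 members. The edgeR test gave 0 in both. At an unadjusted p under 0.05 in DESeq2, 1 member differed in N+P C1, the Nr4a3 distal peak (-0.47, 95% interval -0.82 to -0.12), and 0 in N+P C5. Without Naive replicate 3, 1 member passed in N+P C1 against Naive. The intervals still allowed sizeable change at Nr4a1: at the gene-start peak they ran from -0.69 to 0.38 in N+P C1 and from -0.76 to 0.31 in N+P C5. They were narrow at the Nr4a3 broad promoter peak, from -0.08 to 0.24 in both.

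N+P C5 against N+P C1 asked whether PD1+CD73+ cells differed from PD1- cells after a first pregnancy. No member passed and none was called, beside 0% of all peaks by either rule. Without the replicate number as a block, 0 of 11 had an unadjusted p under 0.05 in DESeq2, and edgeR gave 0. The Nr4a2 broad peak was higher in the PD1+CD73+ library of the same replicate number in 3 of 3 pairs, with a log2 fold change of 0.14 (95% interval -0.11 to 0.39). With the block it was 0.13 with a smaller SE of 0.06. No member passed in that fit, beside 0.0222% of all peaks.

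Sensitized against Naive had 2 members that rose, both at Nr4a2, beside 20.5% of all peaks passing, and 0 called, beside 8.62%. The share of members that passed was near that of all peaks. The Nr4a2 gene-start peak had 242, 281 and 327 normalized counts in Naive and 449, 509, 286 and 346 in Sensitized, with log2 fold change 0.48 ± 0.19 (adjusted p 0.0669). The broad peak of the gene had 2217, 2277 and 2506 in Naive and 3063, 3525, 2371 and 2782 in Sensitized, with 0.33 ± 0.12 (adjusted p 0.0345). Sensitized replicate 3 overlapped the Naive libraries at both peaks. The count fell to 0 without Naive replicate 1, Naive replicate 2 or Sensitized replicate 2, and to 1 without Sensitized replicate 1. Without Sensitized replicates 3 and 4, 6 members rose, beside 33.4% of all peaks passing, including the Nr4a1 gene-start peak at 0.88 ± 0.25 (adjusted p 0.00287), which had 0.51 and did not pass with all 4.

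Pregnancy after sensitization was read against sensitization alone in each of the 3 S+P subsets. S+P C4 against Sensitized had 2 members that rose, beside 6.54% of all peaks passing, and 0 called, beside 0.858%. They were the Nr4a1 internal-promoter peak (0.46 ± 0.11, adjusted p 0.00612) and distal peak (0.58 ± 0.20, adjusted p 0.0768). The internal-promoter peak had 1276, 984, 945 and 892 in Sensitized and 1392, 1301, 1641 and 1323 in S+P C4, and the groups did not overlap. Without S+P C4 replicate 1 the count was 3, beside 13.6% of all peaks, with the Nr4a3 upstream peak added at -0.50 ± 0.14 (adjusted p 0.00898). It was 4 without Sensitized replicate 1 and 1 without any of Sensitized replicates 2, 3 or 4 or S+P C4 replicates 2, 3 or 4, and no member passed without both Sensitized replicates 3 and 4, beside 6.43% of all peaks.

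S+P C5 against Sensitized had 2 members that rose and 2 that fell, beside 32.9% of all peaks passing, and 0 called, beside 6.74%. The Nr4a2 broad peak rose by 0.38 ± 0.11 (adjusted p 0.00553) and the Nr4a1 internal-promoter peak by 0.29 ± 0.11 (adjusted p 0.0473). The Nr4a3 intron peak fell by 0.25 on the log2 scale (adjusted p 0.0636) and the upstream peak by 0.34 (adjusted p 0.0765). Without S+P C5 replicate 4 the count was 1, and it was 2 without any of Sensitized replicates 2, 3 or 4. Without Sensitized replicate 1 it was 6. Without both Sensitized replicates 3 and 4 it was 1, beside 11.2% of all peaks, the Nr4a3 intron peak with -0.35 ± 0.12.

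S+P C7 against Sensitized had 5 members that rose and 2 that fell, beside 52.9% of all peaks passing, and 0 called, beside 11.9%. The Nr4a3 upstream peak fell by 0.76 on the log2 scale (SE 0.15, adjusted p 6.40e-06): it had 454, 473, 561 and 603 in Sensitized and 331, 291, 326 and 290 in S+P C7, with no overlap. The Nr4a1 internal-promoter peak rose by 0.56 ± 0.11 (adjusted p 1.07e-05), with 1335, 1537, 1718 and 1461 in S+P C7, all above the Sensitized libraries. The Nr4a1 distal peak rose by 0.67 ± 0.20, the Nr4a2 broad peak by 0.43 ± 0.11, the Nr4a1 upstream peak by 0.40 ± 0.18 and the Nr4a2 gene-start peak by 0.40 ± 0.17. The Nr4a3 intron peak fell by 0.33 on the log2 scale (adjusted p 0.00526). Without Sensitized replicates 3 and 4, 2 members rose and 2 fell, beside 26.1% of all peaks passing: the Nr4a1 internal-promoter peak (0.42 ± 0.13), the Nr4a2 broad peak (0.27 ± 0.12), the Nr4a3 upstream peak (-0.58 ± 0.18) and the Nr4a3 intron peak (-0.43 ± 0.13).

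**Figure D4:**
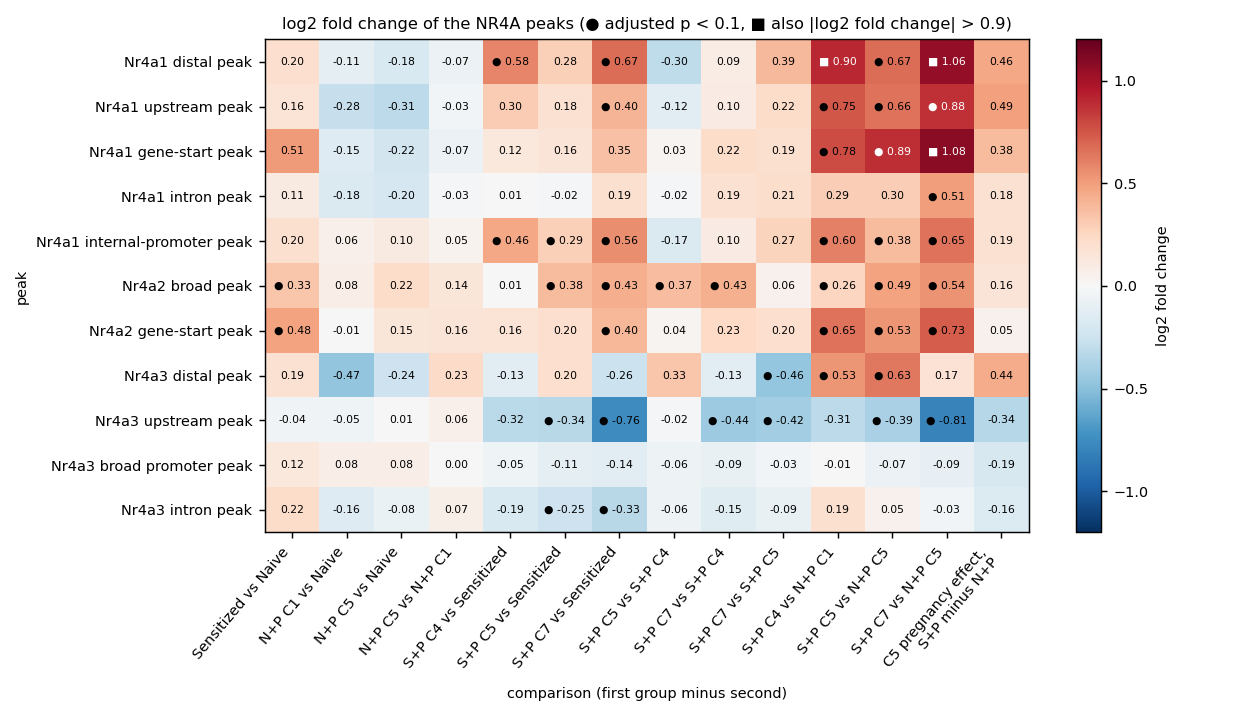
Log2 fold changes of the 11 NR4A peaks (rows) in 14 comparisons (columns, first group minus second), red higher and blue lower. A dot marks adjusted p under 0.1 and a square marks a called peak. Nr4a1 and Nr4a2 rows are red in the S+P against N+P columns, and the Nr4a3 upstream row is blue, down to -0.81 in S+P C7 against N+P C5.

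Among the post-partum cells of sensitized mice, the peak that differed between PD1+ and PD1- cells in both PD1+ subsets was the Nr4a2 broad peak. S+P C5 against S+P C4 had 1 member that rose, the Nr4a2 broad peak, beside 13.3% of all peaks passing, and 0 called, beside 5.12%. The broad peak had 2746, 2822, 3440 and 2767 normalized counts in the C4 libraries. The C5 libraries had 3431, 3987, 4091 and 3729, and the C7 libraries 3656, 4135, 4714 and 3344, so that every C5 and every C7 library exceeded every C4 library except replicate 3. It was higher in S+P C5 than in the S+P C4 library of the same number in 4 of 4 pairs, with log2 fold change 0.37 ± 0.11 (adjusted p 0.0111). Without S+P C4 replicate 3, whose value was the highest of its group, 2 members passed, and without S+P C4 replicate 1 the broad peak alone passed (0.34 ± 0.12, adjusted p 0.0464). At the Nr4a2 gene-start peak the difference was 0.04.

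S+P C7 against S+P C4 had 1 member that rose and 1 that fell, beside 22.2% of all peaks passing, and 0 called, beside 7.73%. The Nr4a2 broad peak rose by 0.43 ± 0.11 (adjusted p 0.00157). The Nr4a3 upstream peak, with 599, 426, 324 and 362 in S+P C4, fell by 0.44 on the log2 scale (SE 0.16, adjusted p 0.0333). Without S+P C4 replicate 1, the high and shallow library, it no longer passed, and the Nr4a2 broad peak did (0.40 ± 0.12, adjusted p 0.0126).

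S+P C7 against S+P C5 compared the PD1+ cells by CD73, the enzyme that makes adenosine. Of the 4 Nr4a3 peaks, 2 fell in the CD73- cells, and they were the members that passed, beside 8.93% of all peaks passing, and 0 were called, beside 2.38%. The Nr4a3 distal peak had 388, 453, 376 and 390 in S+P C5 and 247, 284, 328 and 308 in S+P C7, and fell by 0.46 on the log2 scale (SE 0.15, adjusted p 0.0380). The Nr4a3 upstream peak had 444, 367, 465 and 376 in S+P C5 and 331, 291, 326 and 290 in S+P C7, and fell by 0.42 (SE 0.15, adjusted p 0.0757). Neither pair of groups overlapped, and both peaks were lower in 4 of 4 pairs. The Nr4a3 broad promoter and intron peaks had -0.03 and -0.09 and did not pass. Leaving out any of S+P C5 replicates 1, 2 or 3 or S+P C7 replicates 2, 3 or 4 left 1 member passing, and without S+P C7 replicate 1 the distal peak had -0.38 (adjusted p 0.111).

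Libraries of the same number deviated together in these PD1+ groups, and with the replicate number as a block 5 members rose and the same Nr4a3 peaks fell, beside 26.3% of all peaks passing in that fit. All 5 Nr4a1 peaks were then higher in S+P C7, the internal-promoter peak by 0.27 ± 0.07 (adjusted p 0.000811), the distal peak by 0.38 ± 0.13 (adjusted p 0.0239), the intron peak by 0.20 ± 0.07, the upstream peak by 0.22 ± 0.08 and the gene-start peak by 0.19 ± 0.08 (adjusted p 0.0864). The Nr4a3 distal and upstream peaks fell by 0.46 (adjusted p 0.00291) and 0.41 (adjusted p 0.00347) on the log2 scale. Without the block the Nr4a1 internal-promoter peak had 0.27 and the distal peak 0.39, neither passing. Nr4a2 did not pass in either fit: its broad peak was at 0.05 with the block (adjusted p 0.603) and at 0.06 (95% interval -0.16 to 0.27) without the block.

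**Figure D5:**
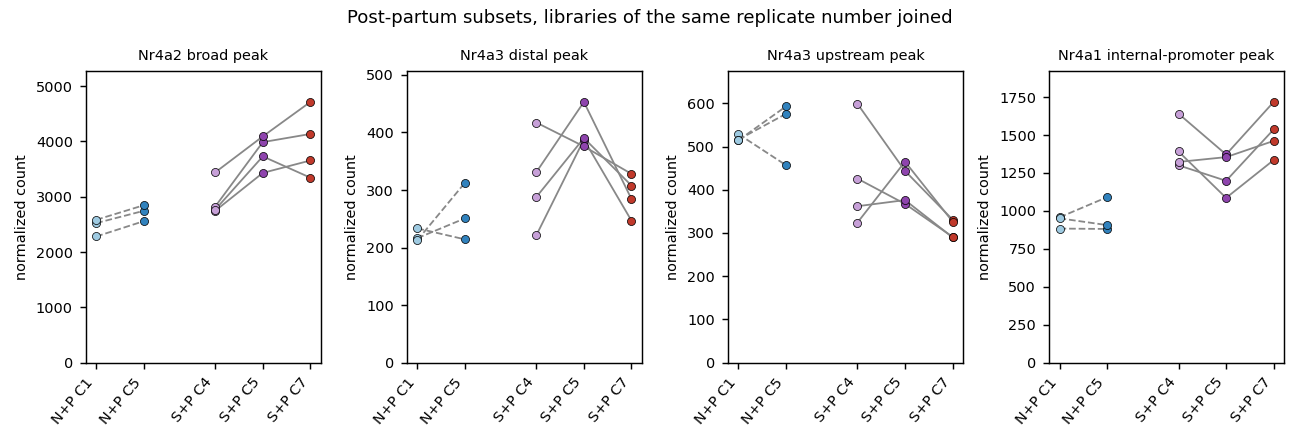
Normalized counts of 4 NR4A peaks in the post-partum subsets, with libraries of the same replicate number joined (dashed, N+P; solid, S+P). The Nr4a2 broad peak rises from PD1- to PD1+CD73+ cells in 3 of 3 N+P and 4 of 4 S+P lines, and both Nr4a3 peaks fall from S+P C5 to S+P C7 in 4 of 4.

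The Nr4a3 broad promoter peak passed in none of the 14 comparisons. Its normalized counts were 4385, 4104 and 4348 in Naive, 4348, 4820 and 4416 in N+P C1, 4412, 4716 and 4472 in N+P C5, and 4855, 4775, 4339 and 4681 in Sensitized. In sensitized mice after pregnancy they were 4396, 4706, 4815 and 4135 for C4, 3872, 4261, 4794 and 4401 for C5, and 3844, 4212, 4866 and 4077 for C7. All groups overlapped in range except that the N+P C5 libraries stood above the Naive ones. The Nr4a2 gene-start peak had 314, 277 and 256 in N+P C1 and 335, 344 and 268 in N+P C5, against 436, 388, 584 and 375 in S+P C4. It had 424, 433, 510 and 458 in the S+P C5 libraries and 441, 540, 635 and 486 in the S+P C7 libraries, so every S+P library exceeded every N+P library.

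The test of whether pregnancy moved the PD1+CD73+ cells differently in sensitized and naive mice (S+P C5 against Sensitized, less N+P C5 against Naive) had 0 members passing, beside 31.2% of all peaks, and 0 called, beside 5.97%. None of the 11 had an unadjusted p under 0.05 in DESeq2, and 0 passed in edgeR. The largest estimates were 0.49 (95% interval -0.04 to 1.02) at the Nr4a1 upstream peak, 0.46 (-0.15 to 1.08) at the distal peak and 0.44 (-0.003 to 0.89) at the Nr4a3 distal peak. Without Sensitized replicates 3 and 4 no member passed, beside 6.5% of all peaks, and these estimates were 0.20, 0.27 and 0.34. The count was 3 without Sensitized replicate 1, and 1 without N+P C5 replicate 3, S+P C5 replicate 1 or S+P C5 replicate 3.

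The genes that act on the NR4A loci and beside them were read through the peaks nearest to them. The 15 upstream regulators (NFAT, calcineurin and MEF2 genes, class II deacetylases, Cabin1 and CREB genes) had 41 peaks, of which 18 rose and 12 fell in S+P C5 against N+P C5, or 73.2% beside the 63.8% of all peaks, and 5 were called upward and 4 downward (22.0% beside 17.2%). The retinoid X receptors, which pair with Nr4a1 and Nr4a2 proteins, had no peak in the table. The 20 immediate-early genes of T cell receptor signaling had 80 peaks, of which 30 rose and 13 fell there (53.8%) and 14 were called upward and 3 downward (21.2%), with a median log2 fold change of 0.145. In Sensitized against Naive, 13 of these 80 rose and 4 fell (21.2% beside 20.5%), and 10 were called upward and 2 downward (15.0% beside 8.62%). Among them an intergenic peak before Egr2, a calcineurin-dependent immediate-early gene, at chr10:67319191-67319593, rose by 3.25 ± 0.43. Its normalized counts went from a low 14.1 ± 5.39 in Naive to 139 ± 85.45 in Sensitized. Without Sensitized replicates 3 and 4, 20 of the 80 rose and 7 fell (33.8% beside 33.4%), 13 were called upward and 3 downward (20% beside 15.2%), and the Egr2 peak rose by 3.82 ± 0.34. Peaks nearest to Tnfaip3, which encodes an inhibitor of NF-kB signaling, moved both ways in S+P C7 against N+P C5: an intergenic peak at chr10:18822532-18822962 rose by 5.10 ± 0.51, and another at chr10:19003003-19003888 had -3.09 ± 0.37 (adjusted p 1.42e-15).

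The 12 genes placed with NR4A and NFAT in exhaustion had 50 peaks at 10 of the genes. In S+P C5 against N+P C5, 24 rose and 15 fell, and 21 were called upward and 9 downward, beside the 17.2% of all peaks. In S+P C7 against N+P C5, 20 were called upward and 13 downward (66.0% beside 22%). The called share also exceeded that of all peaks in the PD1- cells, S+P C4 against N+P C1 (42.0% beside 12.6%), and before any pregnancy, in Sensitized against Naive (28.0% beside 8.62%, and 48.0% beside 15.2% without Sensitized replicates 3 and 4). A Tigit intron peak at chr16:43481871-43482667, in an inhibitory receptor gene, rose by 2.94 ± 0.23 in S+P C5 against N+P C5. Peaks fell too, and those nearest to Bach2, which encodes a repressor of effector genes, moved both ways. An intron peak at chr4:32289841-32292403 had -0.97 ± 0.28 in S+P C7 against S+P C5 (adjusted p 0.0131). In that comparison 4.0% of the 50 peaks were called, beside 2.38% of all peaks. An intergenic Bach2 peak at chr4:32179426-32180282 rose by 3.35 ± 0.34 in S+P C5 against N+P C5, from 53.8 ± 2.09 to 548 ± 66.8 normalized counts. In N+P C5 against Naive 14 of the 50 kept an adjusted p and none of them passed, beside 7.87% of all peaks with one. The shares are descriptions, and no test of the lists was made.

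The peaks whose log2 normalized counts ran most like those of the NR4A promoters over the 25 libraries are named without a test, since libraries share group and depth. For the Nr4a1 gene-start peak they were the promoter of Ptp4a2 (r 0.953), an intron peak nearest to Scimp (0.945), and the promoters of Cish (0.944), Stt3b (0.939) and Tardbp (0.938). Cish encodes a cytokine-induced inhibitor of signaling, and its promoter also ran with the Nr4a1 distal peak (0.918), after a peak nearest to Ccr1 (0.933), which encodes a chemokine receptor, and an Abcb9 intron peak (0.931). The distal peak's list closed with Kcnk7 (0.917) and Gm49337 (0.916). For the Nr4a2 gene-start peak they included Mical2 (0.938), Adcy7 (0.923), an intron peak of Lck (0.921), which encodes the kinase that starts T cell receptor signaling, and a peak before Adora2a (0.914), which encodes an adenosine receptor. For the Nr4a3 broad promoter peak the values were lower, from 0.828 (nearest to Zfp958) through one nearest to Cckar (0.733), Mex3c (0.732) and Tnfaip8 (0.730) to 0.715 (Ripk2).

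The gene-start peaks of Nr4a1 and Nr4a2 ran together. Over the 25 libraries the Nr4a2 gene-start peak ran with the Nr4a1 gene-start peak (r 0.869) and with its own broad peak (0.906), while the Nr4a3 upstream peak ran against the Nr4a1 distal peak (-0.851). The Nr4a3 broad promoter peak had an r of 0.102 with the Nr4a1 gene-start peak and 0.145 with that of Nr4a2. These values are descriptions.

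The deposited peak lists, 1 per group and made from the replicates of that group, held between 5 and 10 members. The lists for both N+P subsets held 6, the Naive list 7 and the Sensitized list 8. The S+P C4 list had 5, the S+P C7 list 8 and the S+P C5 list 10. The share of all peaks held by each list is not given here, so these counts are not read as differences particular to NR4A. The upstream and intron peaks of Nr4a1 and the intron peak of Nr4a3 were in all 7 lists. The Nr4a2 gene-start peak was in the S+P C5 list alone and the Nr4a3 distal peak in those of Sensitized and S+P C5. The Nr4a3 upstream peak was in 6 lists, with a score of 785 for Sensitized and 332 for S+P C7. Library depth differed between groups (2430890 counts in the shallowest S+P C4 library, 25419715 in the deepest S+P C5 library), and its part in what a list held was not tested. At a q-value under 0.05 the lists held 10 of these 50 entries, again without the share over all peaks. The lowest q-value of the Nr4a2 broad peak was 0.00125 in the S+P C5 list and 0.000898 in the S+P C7 list.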

How the data were processed

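ATAC-seq counts over 13527 peaks were taken from the deposited count table of 25 libraries. Per the study's methods and the processing notes, the authors trimmed reads with cutadapt 3.4, aligned them to GRCm39 with Bowtie2 2.2.9, removed duplicates with Picard 2.21.8, called peaks per sample with Genrich 0.6.1, kept reproducible peaks per group with ChIP-R, merged them with bedtools 2.27.1 and counted reads with deepTools. The deposited values are raw counts per peak. The deposited peak lists hold the ChIP-R score and a q-value, pooled over the replicates of a group. Whether cut positions were shifted is not given in the sources used here.

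DESeq2 1.42.0 (R 4.3.3) was fitted once to all 25 libraries with a term per group, median-of-ratios size factors, Wald tests, the independent filter at 0.1 and Benjamini-Hochberg adjustment over all peaks. A normalized count is the raw count over its library's size factor, and ± is SD for levels and SE for log2 fold changes. Intervals are at the 95% level. Groups came from the sample labels. The test was tested on simulated counts. The total count per library ran from 2430890 to 25419715 (median 8197552), and the smallest NR4A count was 61. edgeR 4.0.16 and the other settings named in the closing section were alternatives, of which the fits without Sensitized replicates 3 and 4, and the reading of each alternative at adjusted p under 0.1 without a fold threshold, were added after seeing the data.

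A fit with the replicate number as a block was an alternative in every comparison. Correlations between libraries of the same number, in their deviations from the group means, were 0.108 to 0.400 for N+P C1 and C5, 0.103 to 0.572 for S+P C4 and C5 and 0.522 to 0.771 for S+P C5 and C7, all above 0.1, so these numbers were taken as pairs from the data. For S+P C4 and C7 they ran from 0.0639 to 0.666 and were not, although both subsets were taken as paired with C5. Libraries of different numbers also reached such values, for example S+P C5 replicate 2 with S+P C4 replicate 3 (0.44). The cut-off of 0.1 therefore does not settle which libraries pair. Count columns of the same number share a prefix across the subsets, without saying whether it marks the same mouse.

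Values in every library are given for the peak nearest to each gene start and for each called peak, and peaks of other genes are named as the 5 most alike by Pearson r of log2(normalized count + 1), of which 1 is not reported here. Up to 2 called peaks per list and comparison with the smallest adjusted p could be named, and those named were chosen after their values were seen. Other values were chosen after they were seen. The members, gene lists and thresholds were chosen with earlier results of these data known. Motifs were searched in 300 bases around each midpoint. RefSeq promoters come from a table of build GRCm38.p6 and were placed on GRCm39 by exact match.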

Additional observations from a re-analysis of the deposited data

Results flagged for a closer look

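Among 44 groups of 4 libraries at the 11 NR4A peaks, 2 held a library far from the other 3 by Dixon's gap test, and chance flags about 1 in 20 groups. At the Nr4a1 distal peak, Sensitized replicate 1 had 335.7 normalized counts and the others 191.5, 199.3 and 211.6, a gap of 0.861 of the range, above Dixon's critical value at the 95% level. At the Nr4a2 broad peak, S+P C4 replicate 3 had 3440.2 and the others 2745.9, 2766.8 and 2822.1, a gap of 0.890 of the range.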

How the results depend on the processing

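The 43 pairs of peak and comparison that passed were recomputed under 635 alternatives: 565 stayed past adjusted p 0.1, 70 did not, and none turned direction. The low-count filter removed no peak, and the independent filter had left out none in these comparisons. Switching either setting could therefore not change a result, and such recomputations are counted among the 565. With no fold threshold the called counts became 2 in Sensitized against Naive, 2, 4 and 7 in S+P C4, C5 and C7 against Sensitized, 1, 2 and 2 in S+P C5 against C4, C7 against C4 and C7 against C5, 7 in S+P C4 against N+P C1, and 8 in both other comparisons with N+P C5. In S+P C4 against N+P C1 the called count was 0 with loess offsets and 0 to 2 over fits without a replicate. In S+P C5 against N+P C5 it was 1 with total-count size factors, 1 with loess offsets and 0 to 1 without a replicate, and in S+P C7 against N+P C5 it was 1 to 4 without a replicate.

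At adjusted p under 0.1, the count in Sensitized against Naive was 0 when the compared groups were fitted alone, 0 to 3 without a replicate and 6 without Sensitized replicates 3 and 4. In N+P C1 against Naive it was 1 with total-count size factors, 1 with the compared groups alone and 0 to 1 without a replicate. In S+P C4 against Sensitized it was 1 with edgeR, 1 with the compared groups alone, 1 to 4 without a replicate and 0 without Sensitized replicates 3 and 4. In S+P C5 against Sensitized it was 2 with the compared groups alone, 1 to 6 without a replicate and 1 without Sensitized replicates 3 and 4, and in S+P C7 against Sensitized it was 4 without those libraries. It was 1 to 2 without a replicate in S+P C5 against C4. In S+P C7 against C4 it was 1 with the compared groups alone and 1 to 3 without a replicate. In S+P C7 against C5 it was 1 with edgeR, 4 with the compared groups alone and 1 to 2 without a replicate. In the test of the difference in pregnancy effect it was 1 with total-count size factors, 1 with loess offsets and 0 to 3 without a replicate. The cause was not tested, and most of these counts have no share over all peaks beside them.

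With the replicate block, the count at adjusted p under 0.1 was 7 in S+P C7 against C5 (2 without it), beside 26.3% of all peaks in that fit. The block changed no count in the other comparisons taken as paired, nor in S+P C7 against C4. Where libraries share only a number, the count was 1 in S+P C4 against Sensitized, beside 2.01% of all peaks. It was 2 in Sensitized against Naive, beside 17.3% of all peaks. There the Nr4a1 gene-start peak passed (0.61, adjusted p 0.0188) and the Nr4a2 gene-start peak no longer did (0.52, adjusted p 0.280). It was 3 and 5 in S+P C5 and C7 against Sensitized, beside 23.8% and 41.9% of all peaks. It was 5 in S+P C4 against N+P C1, beside 23.9%, and 8 in S+P C5 against N+P C5, beside 54%. In the last, the Nr4a3 upstream peak no longer passed (-0.34 with the block, adjusted p 0.119, and -0.39 without). The Nr4a1 intron peak passed there with the block (0.33, adjusted p 0.0216). The called count was 0 in S+P C4 against N+P C1 and 1 in S+P C5 against N+P C5.

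Loess offsets moved the balance of all called peaks, from 1390 higher and 943 lower to 917 and 1135 in S+P C5 against N+P C5 and from 422 and 270 to 257 and 445 in S+P C5 against C4, while no scaling moved the median of all peaks by over 0.0536. Assignment among genes of every biotype left 7 of the 11 members, assignment by peak edge left 11, and the low-count filter removed none of the 13527 peaks. The peak lists held 50 member entries, 10 at a q-value under 0.05 and 50 when 50% overlap was asked.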
